A study of Rattus norvegicus with 8 samples.

Results

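The inhibitor of DNA binding (ID) family comprised 4 genes, Id1, Id2, Id3 and Id4, found among 15154 named genes by matching the RefSeq accession of each array probe. Each gene had 1 probe, spotted 10 times on an array for Id1 (probe A_42_P723173, NM_012797) and 2 times for Id2 (A_43_P11685, NM_013060), Id3 (A_64_P139586, NM_013058) and Id4 (A_44_P481915, NM_175582). The RNA came from testis cells that bound a CD9 antibody in a flow cytometric sort, taken from Sprague-Dawley rats with a green fluorescent protein transgene restricted to germ cells. Cells of aged rats (21 months) were compared with cells of young rats (4 months), on 4 one-colour Agilent arrays per group, each labelled from 18 ng of RNA. Both groups carried the transgene, and no other treatment is given. The labels do not say whether each array stands for 1 animal, and the p-values therefore cover only the scatter of these 8 samples, part or all of which may be technical.

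ID proteins have a helix-loop-helix domain for pairing but lack the basic region that touches DNA. They pair with E proteins, the widely expressed basic helix-loop-helix (bHLH) factors encoded by Tcf3, Tcf4 and Tcf12, and the pair cannot bind the E box, the CANNTG sequence that bHLH dimers recognise. Bone morphogenetic proteins (BMPs) acting through SMAD1, SMAD5 and SMAD9 are the best known inducers of Id1, Id2 and Id3. In the mouse testis ID4 marks spermatogonial stem cells, whereas Id1, Id2 and Id3 are also transcribed in endothelial and stromal cells.

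The upstream sequences of Id1 and Id2 are shown because they hold the promoter elements that were found. All 4 genes matched an entry of the RefSeq promoter table (build GRCr8), which was searched on both strands from 250 to 51 bases before the listed start for 5 motifs. They were the E box CANNTG, the CAAT box CCAAT, which reads ATTGG on the other strand, the TATA box TATAAA, the GC-rich SMAD site GGCGCC and the SMAD palindrome GTCTAGAC. No match overlaps another, and capitals mark the matches. The Id1 window is chr3:161671314-161671513, plus strand, and the Id2 window is chr6:47471046-47471245, minus strand, both 5′ to 3′.
Id1: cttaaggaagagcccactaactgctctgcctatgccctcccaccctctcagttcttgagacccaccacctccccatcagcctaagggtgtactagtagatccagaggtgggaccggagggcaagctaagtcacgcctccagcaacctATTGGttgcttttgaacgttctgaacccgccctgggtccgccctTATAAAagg
Id2: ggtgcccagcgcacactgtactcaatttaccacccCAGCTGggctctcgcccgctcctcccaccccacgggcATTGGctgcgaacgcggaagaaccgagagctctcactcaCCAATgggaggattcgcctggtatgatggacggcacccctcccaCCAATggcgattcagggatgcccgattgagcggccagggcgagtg
Id1 held 1 TATA box at position −59 from the start and 1 CAAT box at position −103. Id2 held 3 CAAT boxes and 1 E box, at position −215. Among the 27457 rat promoter windows 57.4% held an E box, 29.3% a CAAT box, 9.99% a TATA box, 6.91% the GC-rich SMAD site and 0.16% the SMAD palindrome. None of these motifs were found in the Id3 and Id4 windows, nor either SMAD motif in any of the 4. Both SMAD motifs are rare in such windows, and bases nearer the start or farther upstream were not searched. The search therefore cannot show whether these genes have SMAD sites. The annotated Id4 transcript begins at its start codon, so the Id4 window is counted from there and may not be its promoter. The windows contained 55.5% (Id1) and 63.5% (Id2) G or C.

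Values below are log2 processed signals relative to the 75th percentile of the probes of the same array, so a value of −3 lies 3 log2 units under that percentile. A spot counts as well above background by the scanner software's flag, and a probe counts as above background on an array where at least 0.5 of its spots do. On an array 63.0% to 72.0% of the 30367 probes were above background. The 75th percentile itself was 331 to 524 intensity units on the aged arrays and 326 to 503 on the young arrays. Young replicate 1 stood apart from its group. Over the genes tested its signals correlated at 0.985 to 0.989 with the aged arrays and at 0.962 to 0.973 with young replicates 2 to 4, which correlated at 0.991 to 0.996 with each other (Pearson r across genes, which are not independent replicates). Each Id result is therefore given with and without that array. The age groups occupied different rows of 1 slide, and an effect of row cannot be told apart from one of age. Cd9, the sorting antigen, was above background on 4 of 4 aged and 4 of 4 young arrays, with means of −1.46 ± 0.30 and −1.30 ± 0.12 (SD, n = 4 each).

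All 4 Id genes had lower mean signals in aged than in young cells, and none of them passed the test. The members differed in how far their probes were measured above background. Id1 was above background on 4 of 4 aged and 4 of 4 young arrays, Id2 on 2 and 3, Id3 on 0 and 3, and Id4 on 2 and 4. Id1 and Id4 therefore passed the filter on dim probes, which required signal throughout at least 1 of the groups, and Id2 and Id3 did not. Of the 2 members tested 0 passed limma's test at a Benjamini-Hochberg adjusted p under 0.05, against 67 calls among 10234 genes (0.655%). At an unadjusted p under 0.05 the counts were 0 of 2 members and 3217 of all genes tested (31.4%). That count of 67 was 3775 without young replicate 1 and 0 or 1 without any other single array. With no filter all 4 could be tested, and 0 were called, as were 0 of 15154 genes (0.00%). In that fit 1 of the 4, Id3, had an unadjusted p under 0.05, against 3339 of all genes (22.0%).

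**Figure D1:**
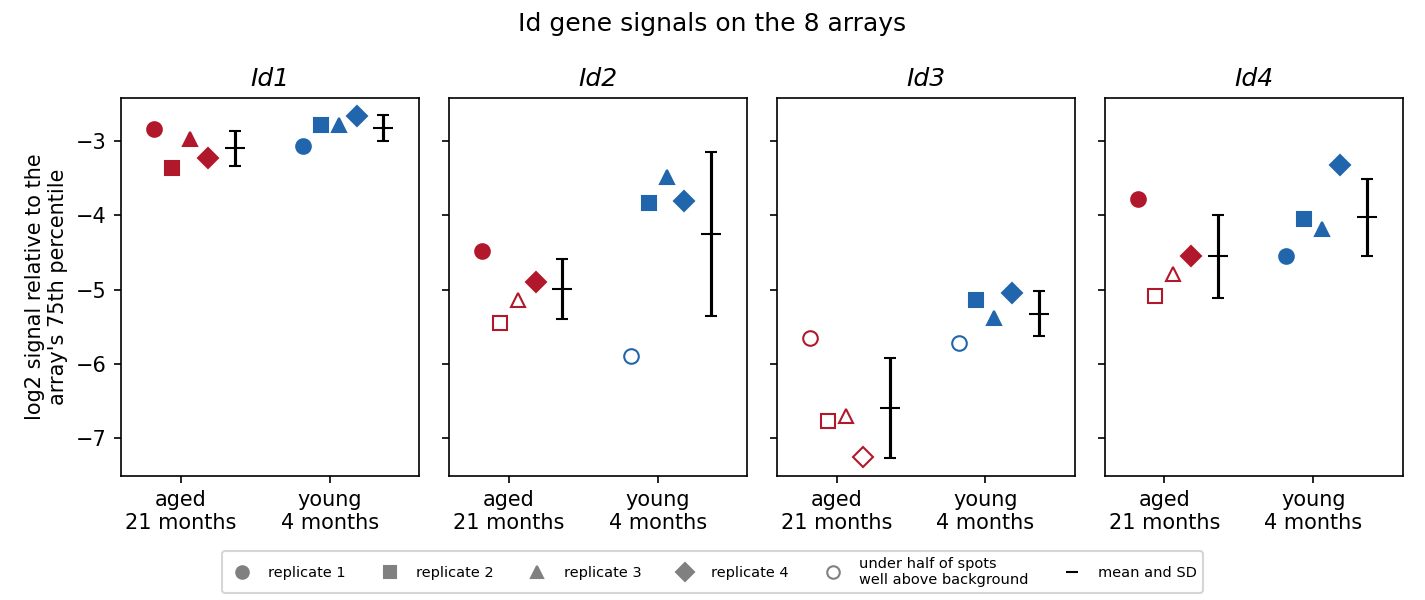
Signal of Id1, Id2, Id3 and Id4 on each array (y axis, log2 relative to the array's 75th percentile), aged left and young right, with the mean and SD beside the points and open symbols where under 0.5 of the spots were well above background. Young replicate 1 (circle) is the lowest young point in all 4 panels, and for Id2 its value of −5.90 lies under every aged value.

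Id1, an inhibitor widely induced by BMP signals, had values of −2.83, −3.36, −2.97 and −3.23 on aged arrays 1 to 4, against −3.07, −2.78, −2.79 and −2.66 on young arrays 1 to 4. The groups overlapped through aged replicates 1 and 3, which lay above young replicate 1, and all 4 aged values lay under young replicates 2 to 4. The means were −3.10 ± 0.24 in aged cells and −2.83 ± 0.17 in young cells (SD, n = 4 each). The difference of −0.27 ± 0.15 (SE) had an adjusted p of 0.232 in limma, a 95% interval of −0.61 to 0.06, and an exact two-sided permutation p of 0.143. Without young replicate 1 it was −0.35 (adjusted p = 0.0786 in limma). The Id1 probe stood near the middle of each array, at percentile 47.9 to 51.6 of all probes on aged arrays and 49.1 to 51.9 on young arrays. Its repeated spots gave a direct measure of scatter within an array, with a standard deviation of 0.121 to 0.224 on aged arrays and 0.122 to 0.175 on young arrays (log2, 9 or 10 spots).

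Id2, which pairs with E proteins and is also known to bind the retinoblastoma protein, had values of −4.48, −5.45, −5.14 and −4.89 on aged arrays 1 to 4, against −5.90, −3.83, −3.48 and −3.80 on young arrays 1 to 4. The aged values lay between young replicate 1, the lowest of all 8, and young replicates 2 to 4, the 3 highest. In processed intensity units Id2 read 14.8, 8.22, 11.3 and 17.6 on the aged arrays, against 5.48, 28.3, 45.0 and 29.4 on the young arrays. Its means were −4.99 ± 0.41 in aged cells and −4.25 ± 1.11 in young cells (SD, n = 4 each). With no filter on dim probes the difference was −0.74 ± 0.50 (SE, limma adjusted p = 0.411, 95% interval −1.88 to 0.40, exact permutation p = 0.286). Leaving out young replicate 1 moved it to −1.29 ± 0.23, which passed (limma adjusted p = 0.0156, no filter). The probe was above background on 2 of 4 aged arrays, and with normexp and percentile scaling the difference over all 8 arrays was −0.17. The 2 Id2 spots of young replicate 1 read 3.60 and 8.33 intensity units and neither was above background, while both spots were above background on young replicates 2, 3 and 4.

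Id3, a BMP-induced inhibitor that like Id1 pairs with E proteins, had values of −5.65, −6.77, −6.71 and −7.26 on aged arrays 1 to 4, against −5.72, −5.14, −5.38 and −5.05 on young arrays 1 to 4. Aged replicate 1 lay just above young replicate 1, and the other 3 aged values lay below all young values. The aged arrays and young replicate 1 had no spot of Id3 well above background, and 1 of 2 spots was on each of young replicates 2, 3 and 4. The means were −6.60 ± 0.68 in aged cells and −5.32 ± 0.30 in young cells (SD, n = 4 each). With each aged value raised to the dimmest probe above background on its array where that was higher, the mean processed signal was 1.59-fold lower in aged cells. This figure is not a bound, since the dimmest probe is not the detection limit of the Id3 probe and no sampling error is included. It takes young replicate 1 at its measured value and holds on the processed signal alone (difference of −0.07 with normexp correction). The measured difference with no filter was −1.27 ± 0.32 (SE, limma adjusted p = 0.116, exact permutation p = 0.0571). Without young replicate 1 it was −1.41 ± 0.35 (limma adjusted p = 0.0337, no filter). Both spots of Id3 read between 2.58 and 6.90 intensity units on every aged array and between 5.22 and 13.1 on the young arrays, and the local background around them read 24 to 29 units.

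Id4, which in mouse spermatogonia is required for stem cell renewal, had values of −3.78, −5.09, −4.78 and −4.55 on aged arrays 1 to 4, against −4.55, −4.05, −4.18 and −3.32 on young arrays 1 to 4. Aged replicate 1 was higher than 3 of the 4 young arrays, and young replicate 4 was the highest of all 8, so the groups overlapped with and without young replicate 1. The means were −4.55 ± 0.56 in aged cells and −4.03 ± 0.52 in young cells (SD, n = 4 each). The difference of −0.52 ± 0.32 (SE) gave a limma adjusted p of 0.280, a 95% interval of −1.25 to 0.20 and an exact permutation p of 0.257. It was −0.70 without young replicate 1 (limma adjusted p = 0.125) and −0.29 without young replicate 4 (limma adjusted p = 0.580). On young replicate 4 the 2 spots of the probe read 31.3 and 53.6 intensity units, whereas the pairs on young replicates 2 and 3 read 22.9 to 28.4. The mean of 18 other markers of undifferentiated spermatogonia, each centred over the 8 arrays, lay between −0.06 and −0.03 on aged arrays, at 0.20 on young replicate 1 and between −0.04 and 0.03 on young replicates 2 to 4. Its members had differences of both signs (11 negative, 7 positive, 0 called), from −0.89 for Gfra1, a receptor subunit for GDNF, to 0.52 for Dazl, a germ cell RNA-binding protein.

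With all 8 arrays, 0 of the 4 members had every aged value below every young value, as 3.37% of the 15154 genes measured did. Id2 and Id3 had a difference of −0.7 or lower, as did 9.94% of those genes. All 4 aged values lay below young replicates 2 to 4 for Id1, Id2 and Id3, as they did for 14.0% of all genes measured, and not for Id4. With young replicate 1 left out and no filter, 2 of the 4 members were called lower (Id2 and Id3), while 10.3% of all genes were called lower in that fit. All 6 pairs of members were compared, and only Id1 and Id4 both passed the filter on dim probes. Their differences between the groups stood 0.25 log2 units apart (exact two-sided permutation p = 0.4, unadjusted). The other 5 pairs hold Id2 or Id3, which failed that filter, and no test of them is given. Id3 had a larger difference than Id1 with the processed signal (−1.27 and −0.27) and a smaller one with normexp and percentile scaling (−0.07 and −0.12).

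The size of these differences depended on the background correction. The processed signal has its background subtracted, so a probe a few units above background has a log2 value that moves with small changes in intensity. After normexp correction (offset 50) with percentile scaling the difference was −0.12 for Id1, −0.17 for Id2, −0.07 for Id3 and −0.05 for Id4 (limma adjusted p from 0.5 to 0.916). All 4 values stayed below 0, and that of Id3 was over 1 log2 unit smaller in size than with the processed signal. The authors' own log2 values gave −0.27, −0.74, −1.27 and −0.52 for Id1, Id2, Id3 and Id4, the same to 2 decimals as the percentile scaling. The difference of the median gene was 0.11, and scaling to spike-in RNA moved that median to −0.35 and the members to −0.73, −1.19, −1.73 and −0.98. Relative to the median gene they stood at −0.38, −0.84, −1.38 and −0.63 under both scalings, which could not differ here because each subtracts 1 value per array. With array weights, which gave young replicate 1 a weight of 0.178 against 0.692 to 2.09 for the other 7 arrays, all 4 members were called lower (limma adjusted p from 0.0181 to 0.0436, Id2 and Id3 with no filter). In the same weighted fits 16.4% of genes passing the filter and 10.5% of genes with no filter were called lower.

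**Figure D2:**
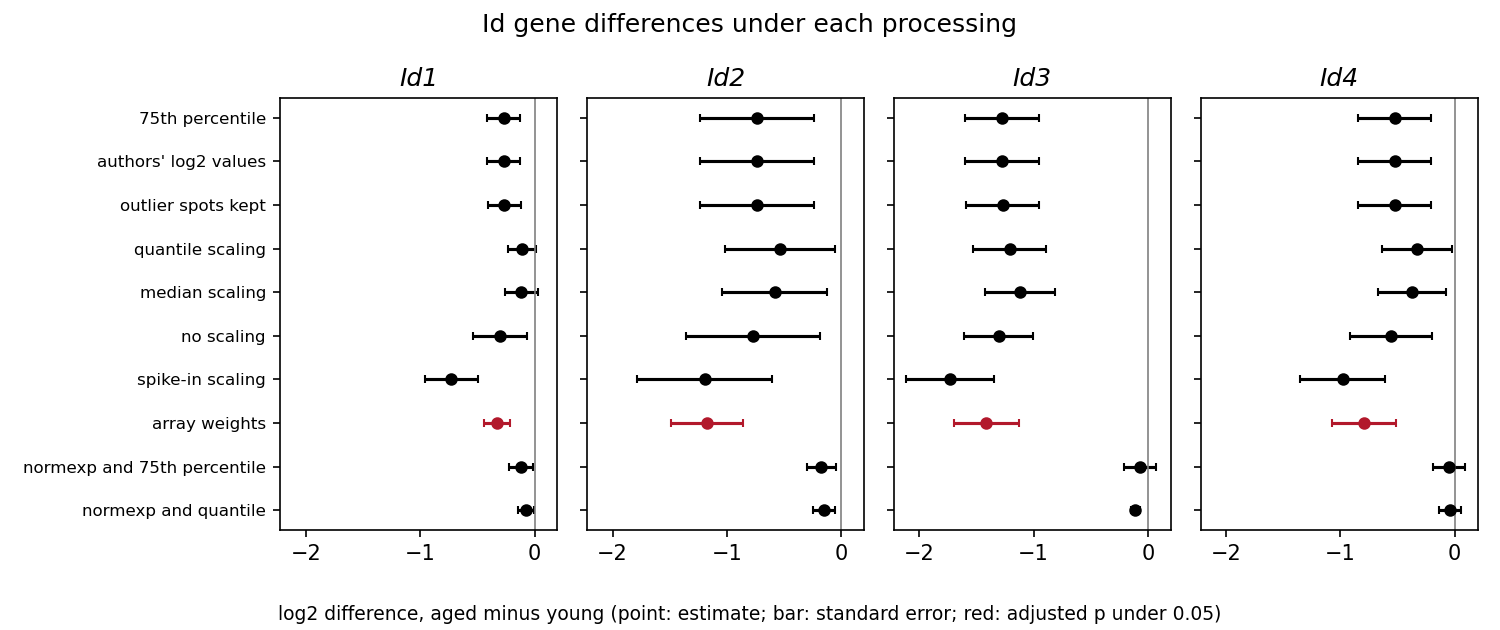
Difference between aged and young arrays (x axis, log2, with its standard error) for each Id gene under 10 ways of scaling, weighting or background correction (rows), red where the adjusted p was under 0.05. All points lie left of 0, only the array weights rows are red, and both normexp rows lie close to 0, with Id3 at −0.07 and −0.11.

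Of the 3 genes for E proteins, which ID proteins hold away from DNA, 0 were called (1 negative and 2 positive differences). Tcf4 had values of −2.69, −2.98, −2.79 and −2.49 on aged arrays 1 to 4, against −2.26, −1.84, −1.88 and −1.71 on young arrays 1 to 4. All aged values lay under all young values, young replicate 1 included, and 4.12% of genes tested were arranged that way. Its difference of −0.82 ± 0.15 (SE) had an adjusted p of 0.0504 in limma, just outside the threshold, and was −0.93 without young replicate 1 (adjusted p = 0.00391 in limma). Tcf3 stood at 0.18 ± 0.14 and Tcf12 at 0.14 ± 0.18 (limma adjusted p = 0.387 and 0.593), and both were negative with spike-in scaling (−0.27 and −0.31). Tcf12, highest on young replicate 1 at 0.10 against −0.42 to −0.18 on aged arrays and −0.70 to −0.55 on young replicates 2 to 4, reached 0.32 without that array (limma adjusted p = 0.0341).

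Other partners, inducers and targets of ID proteins were followed in 9 further lists, which with the E proteins named 117 genes. On the array 107 of these had a probe and 70 passed the filter on dim probes. Of the 70 tested, 0 were called in limma, against 0.655% of all genes, and 18 (25.7%) had an unadjusted p under 0.05, against 31.4% of all genes tested. Their median difference was 0.10 on the log2 scale, against 0.11 for all genes. All aged values lay below all young values for 5 of the 70 and above them for 4. Groups did not overlap, in either direction, for 14.3% of all genes tested. Without young replicate 1, 22 of the 70 were called (31.4%, 8 lower and 14 higher), against 36.9% of all genes.

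**Figure D3:**
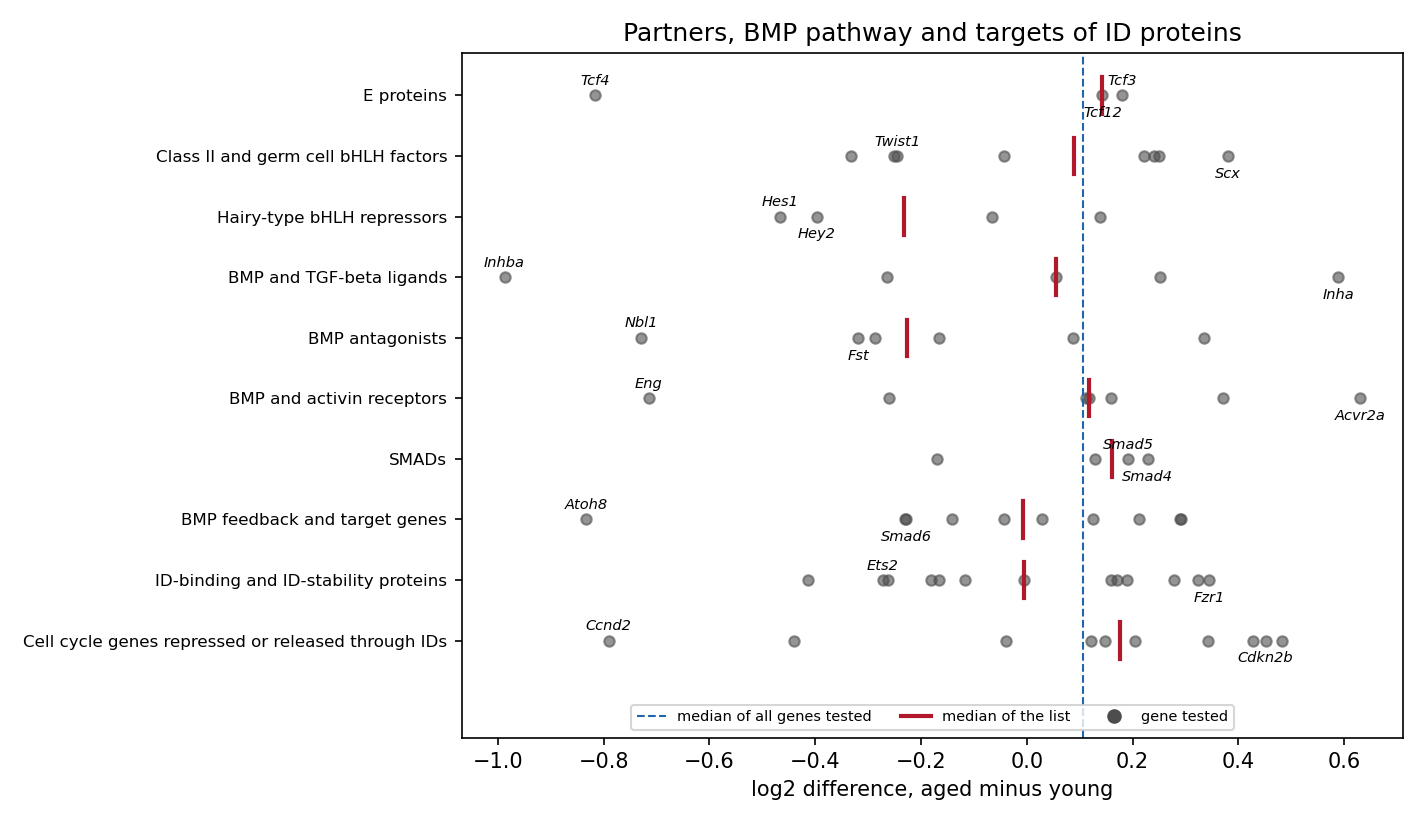
Difference between aged and young arrays (x axis, log2) for each tested gene of the 10 lists (rows), with the list median in red and the median of all genes tested, 0.11, as a dashed line. The list medians lie between −0.23 and 0.18, and the genes farthest to the left are Inhba, Atoh8 and Tcf4.

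Among 17 bHLH factors that pair with E proteins or act in germ cells, 8 were tested and 0 were called (median 0.09). Scx, a factor of tendon progenitors, stood at 0.38 ± 0.14 (adjusted p = 0.108) and Twist1, a factor of mesoderm, at −0.25 ± 0.13 (adjusted p = 0.208, both limma). Scx turned to −0.08 with spike-in scaling. Neurog3, a bHLH factor of progenitor spermatogonia, did not pass the filter on dim probes. Of the hairy-type bHLH repressors 4 were tested and 0 called (median −0.23). Hes1, a target of Notch signalling that is also known to pair with ID proteins, stood at −0.47 ± 0.30 and Hey2 at −0.40 ± 0.17, with limma adjusted p of 0.309 and 0.151. Hey2 was above background on 1 of 4 aged arrays, and its difference was −0.04 with normexp and percentile scaling. Hes1 had its lowest young value on replicate 1 (−4.37 against −3.59 to −3.19 on young replicates 2 to 4), and its aged values ran from −4.51 to −3.38.

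BMP signalling, upstream of Id1, Id2 and Id3, was only partly measured. Of 15 ligands 5 were tested and 0 called, and Bmp4, Gdf2 and Bmp10 were above background on none of the 8 arrays. Inhba, the activin beta A subunit, stood at −0.99 ± 0.38 (limma adjusted p = 0.124) and had signal above background on 1 of 4 aged arrays. It read −5.14 on young replicate 1 against −3.82 to −3.37 on young replicates 2 to 4, and it was −1.39 without replicate 1 (limma adjusted p = 0.00616). Inha, the inhibin alpha subunit, stood at 0.59 ± 0.22 (limma adjusted p = 0.115). Of 13 extracellular antagonists 6 were tested and 0 called, with Nbl1 at −0.73 ± 0.36 and Fst, which binds activin, at −0.32 ± 0.16 (limma adjusted p = 0.197 for both). Nbl1 was −1.12 without young replicate 1 (limma adjusted p = 0.00697).

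Of 15 receptors and co-receptors 7 were tested and 0 called. Acvr2a, a type II receptor of activins and BMPs, had higher values on all aged than on all young arrays, with a difference of 0.63 ± 0.23 (limma adjusted p = 0.114). Groups were separated in either direction for 14.3% of all genes tested. Eng, a co-receptor of endothelial cells, stood at −0.72 ± 0.27 (limma adjusted p = 0.119) and at −0.85 without young replicate 1 (limma adjusted p = 0.0497). Of the 6 SMADs 4 were tested and 0 called. Smad4, the partner shared by all receptor SMADs, stood at 0.23 ± 0.11 and Smad5, a BMP effector, at 0.19 ± 0.13 (limma adjusted p = 0.183 and 0.321), and both were negative with spike-in scaling (−0.23 and −0.26).

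Known BMP feedback and target genes other than the Id family differed in direction, with 5 negative and 5 positive differences among 10 tested and 0 called (median −0.0079). Atoh8, a bHLH gene induced by BMP, had values of −1.59, −1.91, −1.34 and −1.23 on aged arrays 1 to 4, against −1.33, −0.72, −0.36 and −0.33 on young arrays 1 to 4. Its difference was −0.83 ± 0.24 (limma adjusted p = 0.0781) and −1.05 without young replicate 1 (limma adjusted p = 0.00722). Here young replicate 1 lay among the aged values. Smad6, the inhibitory SMAD of the BMP branch, was lower on all aged than on all young arrays by a small amount, −0.23 ± 0.11 (limma adjusted p = 0.174, −0.03 with normexp and quantile scaling). That arrangement held for 4.12% of all genes tested.

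Of 15 genes for proteins that bind ID proteins or set their stability 13 were tested and 0 called (median −0.0048). Ets2, a transcription factor that ID proteins can inhibit, stood at −0.27 ± 0.10 with separated groups, and Fzr1, an activator of the ubiquitin ligase that marks ID proteins for degradation, at 0.34 ± 0.13 (limma adjusted p = 0.113 and 0.125). Fzr1 was −0.11 with spike-in scaling. All 10 cell cycle genes linked to ID proteins were tested and 0 were called (median 0.18, 3 negative and 7 positive). Cdkn2b, an inhibitor of cyclin D kinases, was higher on all aged than on all young arrays at 0.45 ± 0.10 (limma adjusted p = 0.0561). That difference was −0.0042 with spike-in scaling. Ccnd2, cyclin D2, was lower on all aged than on all young arrays, with values of −2.18, −2.44, −1.65 and −1.51 against −0.91, −1.32, −1.08 and −1.32. Its difference was −0.79 ± 0.21 (limma adjusted p = 0.0704), and here young replicate 1 held the highest value. Beside Ets2, Cdkn2b and Ccnd2, 14.3% of all genes tested had separated groups in either direction. Without young replicate 1, 1 of the 10 cell cycle genes was called lower and 6 higher, where 36.9% of all genes tested were called in either direction and 14.6% lower.

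Marker lists of other cell types also differed between arrays, some lower and some higher on aged arrays, and their part in the Id values was not tested. In bulk RNA of sorted cells fewer cells of a type and less RNA per cell cannot be told apart. The mean of 14 peritubular myoid and stromal markers, each centred over the 8 arrays, lay between −1.31 and −0.32 on aged arrays, at −0.60 on young replicate 1 and between 1.001 and 1.20 on young replicates 2 to 4. Of these 14 genes 1 was called lower and 0 higher, against 0.156% and 0.498% of all genes tested. Without young replicate 1, 13 of the 14 were called lower, against 14.6% of all genes tested. The summed scaled signal of the list was 2.88 to 6.27 on aged arrays and 4.80 to 22.2 on young arrays, in multiples of the 75th percentile, and Lum was above background on no array. The mean of 10 endothelial markers was −0.27 to −0.05 on aged arrays, −0.09 on young replicate 1 and 0.21 to 0.25 on young replicates 2 to 4, with summed signals of 2.56 to 2.77 on aged and 3.06 to 3.23 on young arrays and with Tek and Sox17 above background on none. The 10 had differences of both signs (6 negative, 4 positive, 0 called), from −1.17 for Cldn5 to 0.46 for Flt1. Without young replicate 1, 4 of them were called lower and 0 higher, against 14.6% of all genes tested called lower.

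Spermatid markers (19 of 19 with a negative difference) had means of −1.18 to −0.16 on aged arrays, −0.49 on young replicate 1 and 0.56 to 1.14 on young replicates 2 to 4, with summed signals of 266 to 539 and 363 to 914 on aged and young arrays. Macrophage and leukocyte markers (13 of 13 with a negative difference) had means of −1.35 to 0.49, −0.51 and 0.51 to 1.006 in the same order of arrays, with summed signals of 6.70 to 20.3 on aged and 9.68 to 31.0 on young arrays. Neither list had a called member, and without young replicate 1, 19 spermatid and 6 macrophage markers were called lower, against 14.6% of all genes tested. Aged replicate 2 held the lowest values of Id1 and Id4 and the lowest stromal, spermatid, macrophage and endothelial means of all 8 arrays. Its Leydig mean of −0.48 was the same to 2 decimals as that of young replicate 1. Id2 was lowest on young replicate 1 and Id3 on aged replicate 4, and a link was not tested. Means of 7 Sertoli cell markers (−0.13 to 0.28 aged, −0.49 to 0.30 young) and 7 Leydig cell markers (−0.48 to 0.31 aged, −0.48 to 0.36 young) overlapped between the groups. Differentiating spermatogonia (7 markers) lay at 0.02 to 0.28 on aged arrays, 0.09 on young replicate 1 and −0.28 to −0.21 on young replicates 2 to 4. These 7 did not move together, with 5 positive and 2 negative differences and 1 called higher (Sycp3). The highest were Sycp3 (1.19) and Sycp1 (0.79), whereas Kit stood at 0.13, Dmrtb1 at −0.12 and Ccnd2 at −0.79. Spermatocytes (19 markers) lay at −0.02 to 0.32 on aged arrays, −0.24 on young replicate 1 and −0.18 to −0.12 on young replicates 2 to 4. Of the 19, 7 were called higher, against 0.498% of all genes tested, and 5 had negative differences, from −1.54 (Ccna1) to −0.39 (Hspa2). Without young replicate 1, 12 were called higher and 4 lower, where 36.9% of all genes tested were called in either direction and 14.6% lower.

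**Figure D4:**
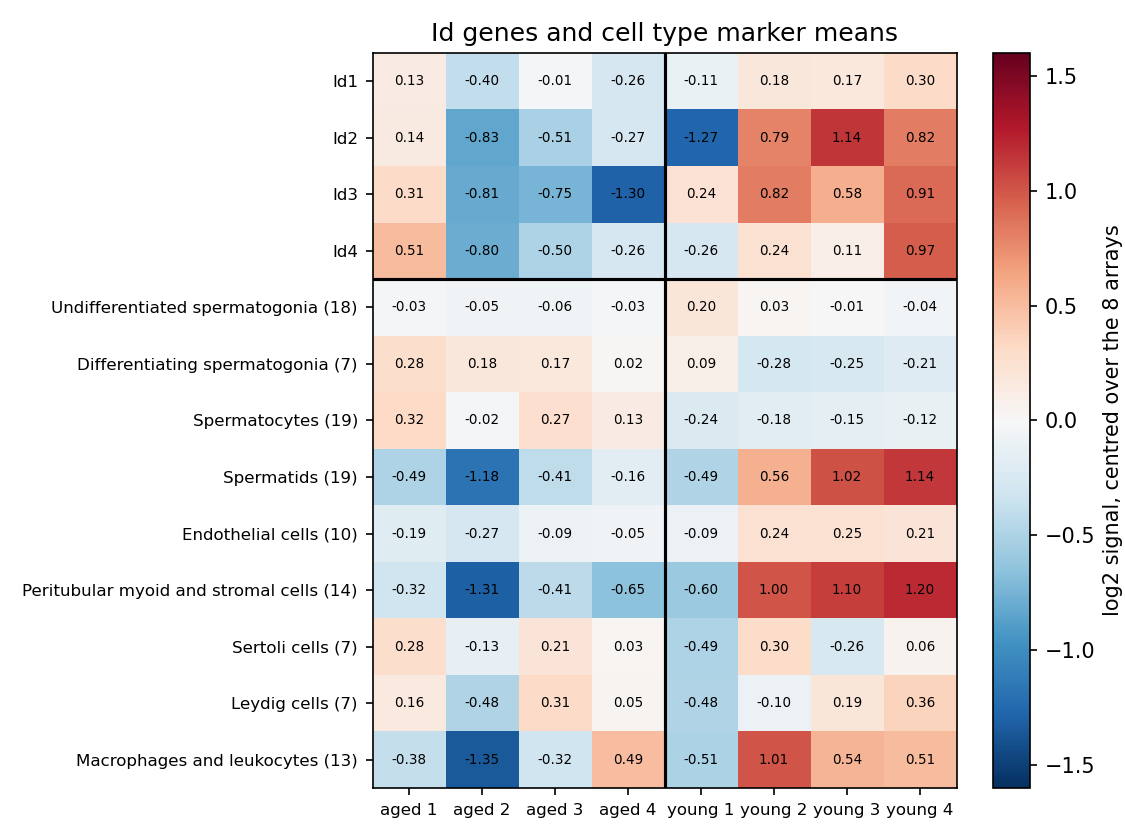
Log2 signal of the 4 Id genes (top rows) and mean of 9 cell type marker lists (lower rows, number of genes in brackets), each gene centred over the 8 arrays, with aged arrays left and young arrays right. Young replicate 1 is low for Id2 (−1.27) and for the stromal markers (−0.60), where the other young arrays are high, and the undifferentiated spermatogonia row stays between −0.06 and 0.20.

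The genes whose signals over the 8 arrays were most like each member differed from member to member. They were chosen as the 3 highest of the Pearson correlations with all other genes tested and are a description without a test, since with 8 arrays many genes reach a high r. Id1 was most like Cd302 (r = 0.993), a C-type lectin receptor, Vdac1 (0.979), a channel of the outer mitochondrial membrane, and Acsbg1 (0.966), an acyl-CoA synthetase, and 127 of 10231 genes had r above 0.9 with it. Id2 was most like Pla1a (0.974), a phospholipase, Hsd17b13 (0.972), a lipid droplet dehydrogenase, and Ppm1a (0.968), a phosphatase known to act on SMADs, with 260 genes above 0.9. Id3 was most like Col1a1 (0.979), a collagen of stromal cells and a member of the stromal list, Tacr2 (0.973), a tachykinin receptor, and Rcn3 (0.972), a calcium-binding protein of the secretory pathway, with 40 genes above 0.9. Id4 was most like Ado (0.963), a thiol dioxygenase, Gulo (0.944), the last enzyme of vitamin C synthesis, and C8h11orf65 (0.944), with 23 genes above 0.9. Between members r over the 8 arrays was 0.633 (Id2 and Id3) to 0.869 (Id1 and Id4), values that share the same arrays and scaling.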

How the data were processed

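Sorted CD9-positive testis cells were profiled on 8 one-colour arrays. Per the file headers, the deposited processed signal is an intensity from which Agilent Feature Extraction 10.7.3.1 had subtracted background and a spatial trend (version 12.5 in the submitters' processing notes). The deposited median spot and background signals are raw intensity values, and deposited flags mark spots above background or outliers. The authors' deposited log2 table is centred per probe, and how its arrays were scaled is not given in the sources used here. Control and outlier spots were left out, log2 signals averaged per probe and each array's 75th percentile subtracted. Accessions without version were matched to RefSeq (GRCr8, names only): 17998 probes matched 15154 genes and 12369 stayed unnamed. The brightest passing probe stood for a gene.

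Aged minus young differences were fitted over 10234 genes by lmFit and eBayes of limma 3.58.1 in R 4.3.3 (two-sided tests, 9.15 degrees of freedom), tested on simulated data, with Benjamini-Hochberg adjustment over all genes. Id2 and Id3 did not pass the filter on dim probes, for which that fit was planned, so they were tested over 15154 genes without it. Intervals are 95% intervals from the same fits. The number of arrays limits precision, and no spot was saturated. The members and lists were chosen with earlier results of these data known. Genes named were the members, the E proteins, up to 4 called genes or else the 2 with the smallest p of each other pathway list, and the 3 most like each member. Other genes (Cd9, Neurog3, Gfra1, Dazl, Ccna1, Hspa2, Sycp1, Sycp3, Kit, Dmrtb1, Cldn5, Flt1 and those above background on no array) were named outside that rule. Inha, Eng, Gata4 and Ccnd2 stand in 2 lists each.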

Additional observations from a re-analysis of the deposited data

Results flagged for a closer look

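Of 50 groups of 4 arrays checked over 25 genes (the 4 Id genes and the named genes of the pathway lists), 5 held 1 array whose gap to the nearest other, as a share of the group's range, exceeded Dixon's 95% critical value, and chance flags about 1 in 20 groups. Id2 on young replicate 1 stood at −5.90, against −3.83 to −3.48 on young replicates 2 to 4. Scx on aged replicate 1 stood at −0.40, against −0.59 to −0.58. Inha stood at −0.044 on aged replicate 2, against −0.42 to −0.36, and at −0.20 on young replicate 2, against −1.20 to −1.07. Smad4 on aged replicate 1 stood at −1.88, against −1.65 to −1.63. The cause was not tested for any of these.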

How the results depend on the processing

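All 4 Id differences kept their negative sign under every alternative run (23 for Id1, 21 each for Id2 and Id3, 22 for Id4). Some of these leave the estimate unchanged by construction: the intensity trend, the replicate block, the mean of a gene's probes and the choice of genes tested. None of the 4 was called except as follows. With array weights Id1 was −0.33, Id2 −1.18, Id3 −1.41 and Id4 −0.80, all called. Leaving out each array in turn gave −0.36 to −0.18 for Id1, −1.29 to −0.48 for Id2, −1.59 to −1.05 for Id3 and −0.78 to −0.29 for Id4. Id2 and Id3 were called only without young replicate 1. Over all alternatives limma's adjusted p ran from 0.041 to 0.57 for Id1, 0.0156 to 0.702 for Id2, 0.0181 to 0.916 for Id3 and 0.0436 to 0.847 for Id4. Requiring signal on all 8 arrays left Id1 alone. The number of genes called, 67, ranged from 0 to 3775 when each array was left out, with 3775 without young replicate 1 and 0 or 1 otherwise. It was 0 with no scaling, no filter or unnamed probes tested (1388, 3339 and 5332 at an unadjusted p under 0.05), 1335 with median scaling, 1069 with spike-in scaling (4 probes), 630 and 253 with normexp and percentile or quantile scaling, 427 with an intensity trend and 4563 with array weights. Lower calls made up 16 of the 67, 266 of 1335, 1063 of 1069, 267 of 630, 34 of 253, 149 of 427 and 1679 of 4563. With the replicate number as a block 0 genes passed, against 3231 before adjustment at 0.05. In that block Id1, Id2, Id3 and Id4 had adjusted p of 0.310, 0.496, 0.191 and 0.332. Deviations of samples sharing a number correlated with both signs (r of −0.264, −0.114, 0.441 and 0.352 for numbers 1 to 4). Not every array correlated best with its own number. With 4 arrays per group these values cannot settle whether the numbers pair samples. Signals near background limit Id2, Id3 and Id4. The cause of these changes was not tested.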
